A study of Mus musculus with 6 samples.

Results

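Respiratory complex I, NADH:ubiquinone oxidoreductase, was described here at the level of its nuclear transcripts in mouse embryonic stem cells. Its genes were taken by name, as every gene symbol that begins with Ndufa, Ndufb, Ndufc, Ndufs or Ndufv, which includes the Ndufaf assembly factors. The rule found 47 names at 48 of 62490 assembled loci, among 49415 names in all. Of these, 36 are subunits of complex I and 8 are Ndufaf assembly factors. The others are Ndufa4, which later work assigned to complex IV, its paralogue Ndufa4l2, and the processed pseudogene Ndufab1-ps.

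The study holds 6 libraries in 3 groups of 2, labelled as biological duplicates: cells given VD3 (1α,25-dihydroxyvitamin D3, the hormonal form of vitamin D, at 1 µM) and, with it, 100 µM of the MLL1 inhibitor MM-401 for 5 days, cells given 1 µM VD3 alone for 5 days, and untreated cells. All groups share the C57BL/6J strain, the genotype Mll1 fl/fl with Cre-ER TM, LIF, and mouse embryonic fibroblast feeder cells. They also share 15% serum and 20% KSR (a serum replacement). No treatment time is listed for the untreated cells. The promoter of the Cre is not given in the sources used here, and neither is the number of independent cell lines. No group received MM-401 alone, and the deposited tables hold 1 pooled column per group, so no difference has a replicate check or a p-value. Each value below is an FPKM, a fragment count scaled by transcript length and by sequencing depth, with the lower and upper bound that the authors deposited for the pool, whose confidence level is not given in the sources used here.

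Complex I takes electrons from NADH in the mitochondrial matrix, passes them through a flavin and a chain of iron-sulfur clusters to ubiquinone, and couples this to proton pumping across the inner membrane. Its matrix arm holds the redox centres and its membrane arm the proton pumps. A conserved core carries out the reaction, and many accessory subunits surround it. Assembly factors join the modules and are absent from the finished enzyme. Pluripotent stem cells of the mouse use both glycolysis and respiration.

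The pools held 73499639 (VD3 plus MM-401), 73636342 (VD3) and 62284598 (untreated) estimated counts, of which the complex I names took 0.520%, 0.372% and 0.292%. The standard deviation by the authors' model was, for the median member, 19.2% (VD3 plus MM-401), 17.2% (VD3) and 17.2% (untreated) of its estimated count. The 8 pluripotency markers lay between 30.9 and 2088 FPKM with VD3 plus MM-401, 26.7 and 2053 with VD3, and 26.4 and 1114 in untreated cells. Of the 10 fibroblast markers, 8 (VD3 plus MM-401), 7 (VD3) and 7 (untreated) were below 1 FPKM, and Lum was listed at 0 in all 3 pools. Their summed level was 176, 179 and 64.2 FPKM, of which Vim, also expressed outside fibroblasts, made up 165, 159 and 50.4. The part of feeder cell RNA in the differences below was not tested.

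Most complex I transcripts had their highest FPKM with both agents. By FPKM, 43 of 47 members (91.5%) stood in the order VD3 plus MM-401, then VD3, then untreated, against 31.7% of all 11228 genes with at least 5 FPKM in 1 pool. By estimated count, 40 members did so both as deposited and after scaling to equal pool totals, against 30.6% and 25.6% of all genes. For VD3 alone, the bounds of every member overlapped those in untreated cells. The median member was at 249 FPKM with VD3 plus MM-401, 156 with VD3 and 93.1 in untreated cells. In such bulk pools, a different share of cells and a different amount of RNA per cell cannot be told apart. A member was counted as higher or lower where its FPKM + 1 differed 2-fold (1 on the log2 scale) and the deposited bounds did not overlap. Only genes that reached 5 FPKM in 1 of the pools compared were used.

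**Figure D1:**
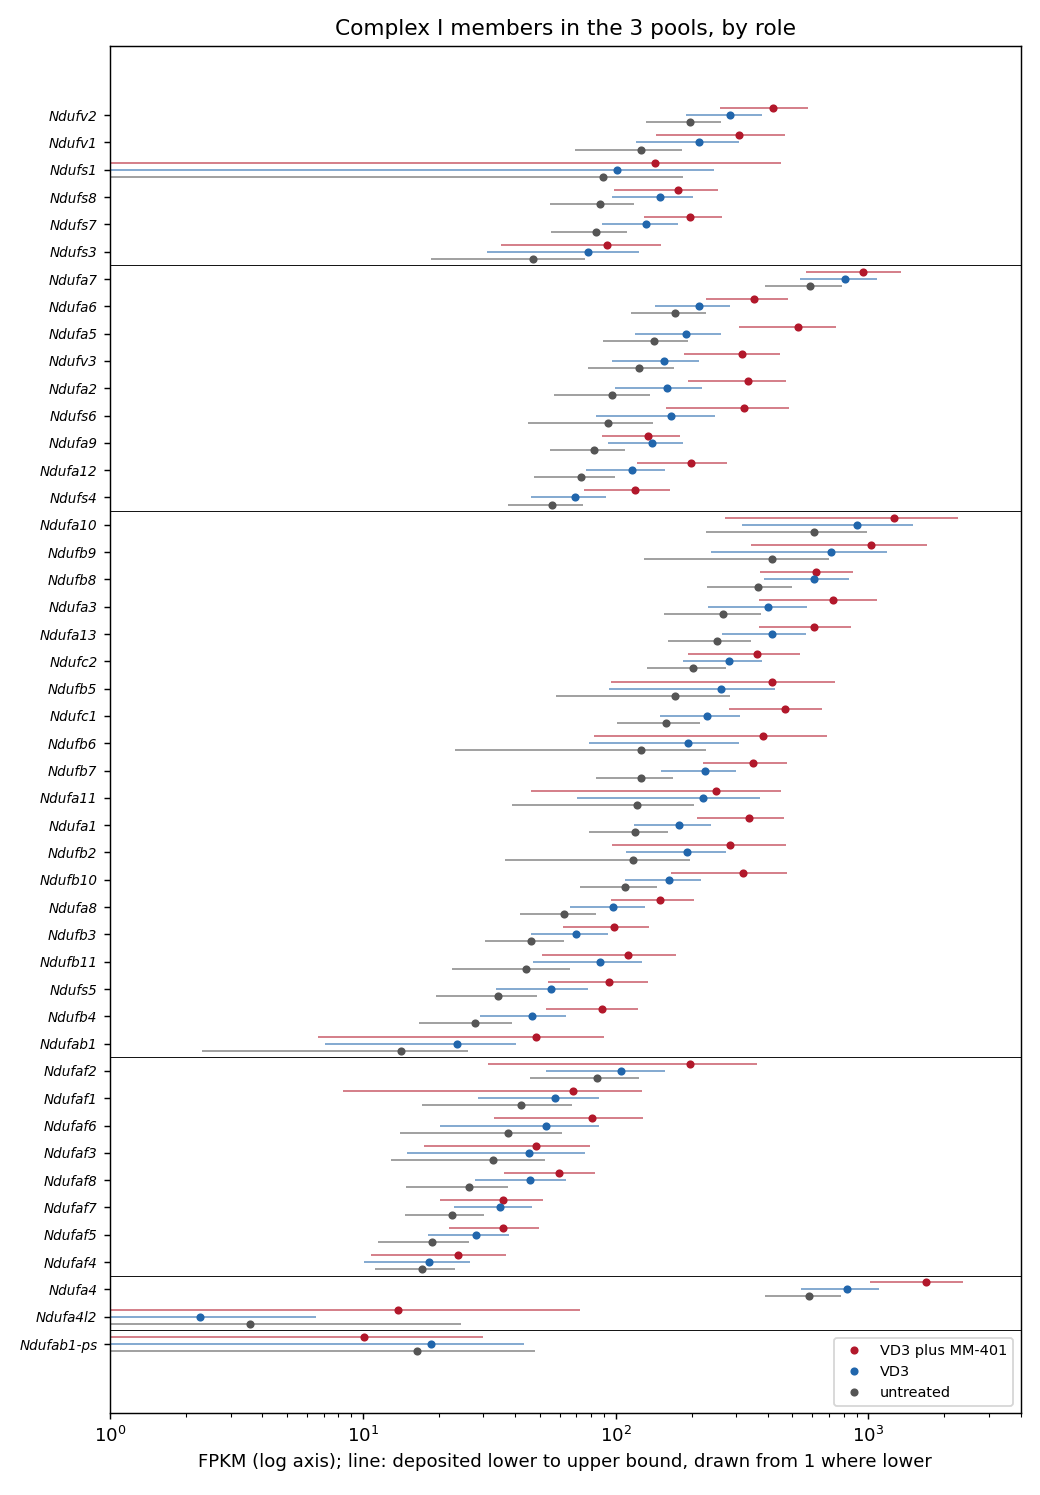
FPKM of 46 complex I members in the VD3 plus MM-401, VD3 and untreated pools on a log axis, with members grouped by role from the core subunits at the top to the pseudogene at the bottom. Points are the deposited values and lines the deposited bounds, drawn from 1 where lower; the bounds of Ndufa5 with VD3 plus MM-401 (309 to 742) lie above those of both other pools, while those of Ndufs1 reach 0 in every pool.

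Levels differed widely among subunits of 1 enzyme. Per length, in FPKM, the 36 subunits ranged between 48.3 and 1267 with VD3 plus MM-401, 23.7 and 905 with VD3, and 14.2 and 608 in untreated cells. Ndufab1, the mitochondrial acyl carrier protein, was the lowest and Ndufa10, an accessory subunit related to nucleoside kinases, the highest in all 3 pools. The value of Ndufa10 sums 2 loci with identical coordinates. Their FPKM were 706 and 561 with VD3 plus MM-401, 622 and 283 with VD3, and 429.9 and 178 in untreated cells. Each locus alone lay below Ndufa7, at 954, 812 and 587 FPKM in the same order. The rank of Ndufa10 and the upper ends of the ranges above thus rest on the sum. The spread among subunits hardly differed between pools, with a standard deviation of the log2 FPKM of 1.10, 1.16 and 1.18 in the same order. Core subunits had a median level of 197 FPKM with VD3 plus MM-401, 149 with VD3 and 89.0 in untreated cells. Accessory subunits of the membrane arm were at 343, 207 and 124 FPKM, and the assembly factors at 53.9, 45.5 and 29.4. The assembly factors thus stood below each subunit class in every pool by their median.

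With both agents together, set against untreated cells, 16 of 47 members were higher and 0 were lower. Among all 10969 genes compared, 4.26% were higher and 2.69% lower by the same criterion. The median member was 1.23 higher on the log2 scale, against 0.27 for the median of all genes, and 46 of 47 members lay above that median gene. A 2-fold difference alone, with the bounds left aside, was reached by 34 members, against 13.4% of all genes. The other 18 of these 34 had overlapping bounds, and in 12 of the 18 the lower bound in the VD3 plus MM-401 pool was less than the FPKM divided by 2. The 16 members are 6 of 9 accessory subunits of the matrix arm, 8 of 20 of the membrane arm, 1 of 7 core subunits, 0 of 8 assembly factors, and Ndufa4.

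The accessory subunits of the matrix arm held the members with the greatest differences. Ndufa5 (chromosome 6, 24518666 to 24528013 in GRCm38), a subunit of the quinone-binding module, was at 525 FPKM with VD3 plus MM-401 (309 to 742), 191 with VD3 (119 to 262) and 141.5 in untreated cells (89.0 to 194). The VD3 plus MM-401 pool stood apart from both others, whose bounds overlapped. The ratio of VD3 plus MM-401 to untreated was 3.71 by FPKM and 3.42 by estimated count (6100 and 1784). Ndufs6, a zinc-binding subunit that is added late to the arm, was at 322 FPKM with VD3 plus MM-401 (158 to 485), 166 with VD3 (83.9 to 248) and 93.1 in untreated cells (45.1 to 141). Its bounds were apart between the first and the last of these pools only. Ndufa2, a subunit with a thioredoxin-like fold, was at 333, 160.0 and 97.2 FPKM in the VD3 plus MM-401, VD3 and untreated pools, a log2 difference of 1.77 between the first and the last.

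The 3 other matrix-arm members that were higher had log2 differences between 1.09 and 1.42. Ndufa12, which sits at the junction of the matrix arm with the membrane, was at 198 FPKM with VD3 plus MM-401, 116 with VD3 and 73.3 in untreated cells. Ndufv3 was at 316, 156 and 124 FPKM in the same order. Ndufs4, whose loss in mice causes an encephalopathy used as a model of Leigh syndrome, was at 120, 69.1 and 55.8 FPKM, with bounds of 74.96 to 165 and 37.5 to 74.2 in the VD3 plus MM-401 and untreated pools. These bounds lay just apart. Ndufa6, Ndufa7 and Ndufa9 were not counted as higher. Ndufa6 is a member of a protein family with a shared LYR motif. It was at 353 FPKM with VD3 plus MM-401 (226.9 to 479), 213 with VD3 and 171 in untreated cells (115 to 227.8). Its log2 difference of 1.04 passed 2-fold, and its bounds overlapped only narrowly. Ndufa7 was among the most abundant members, at 954, 812 and 587 FPKM, and Ndufa9, at 134, 139 and 82.0, had overlapping bounds in all 3 pools.

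Promoter sequences are shown for members with a large difference (Ndufa5, Ndufs6, Ndufb4) and for the core subunit that was higher (Ndufs7), since genes of respiration are known to be bound by the factors NRF1, GABP (an ETS factor) and YY1. They are from RefSeq (GRCm38.p6) and run 5′ to 3′ on the gene's strand over 250 bases before and 50 after a start. The windows are chr6:24527477-24527776 (minus strand, the downstream of 2 starts) for Ndufa5, chr13:73328433-73328732 (minus) for Ndufs6, chr16:37654319-37654618 (minus) for Ndufb4 and chr10:80249199-80249498 (plus) for Ndufs7. Capitals mark matches to GCGCA and GCGC with any 1 base between them (NRF1), CCGGAAG (ETS) or AAGATGGC (YY1) on either strand.
Ndufa5: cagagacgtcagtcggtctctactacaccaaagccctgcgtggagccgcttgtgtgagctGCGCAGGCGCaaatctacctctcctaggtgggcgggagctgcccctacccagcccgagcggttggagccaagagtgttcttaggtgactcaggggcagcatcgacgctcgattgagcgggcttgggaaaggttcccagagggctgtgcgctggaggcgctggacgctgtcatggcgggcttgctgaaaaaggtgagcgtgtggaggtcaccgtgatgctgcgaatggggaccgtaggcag
Ndufs6: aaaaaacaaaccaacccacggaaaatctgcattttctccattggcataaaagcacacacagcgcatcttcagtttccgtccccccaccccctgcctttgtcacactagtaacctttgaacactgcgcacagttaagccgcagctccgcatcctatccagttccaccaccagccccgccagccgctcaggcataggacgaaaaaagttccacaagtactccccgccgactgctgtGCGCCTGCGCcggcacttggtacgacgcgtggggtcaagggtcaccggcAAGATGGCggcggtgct
Ndufb4: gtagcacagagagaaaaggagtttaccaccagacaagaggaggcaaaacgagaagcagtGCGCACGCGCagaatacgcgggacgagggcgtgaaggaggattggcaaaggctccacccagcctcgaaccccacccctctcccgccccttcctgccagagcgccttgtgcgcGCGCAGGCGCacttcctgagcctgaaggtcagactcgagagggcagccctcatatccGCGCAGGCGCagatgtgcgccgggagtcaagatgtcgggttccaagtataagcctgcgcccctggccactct
Ndufs7: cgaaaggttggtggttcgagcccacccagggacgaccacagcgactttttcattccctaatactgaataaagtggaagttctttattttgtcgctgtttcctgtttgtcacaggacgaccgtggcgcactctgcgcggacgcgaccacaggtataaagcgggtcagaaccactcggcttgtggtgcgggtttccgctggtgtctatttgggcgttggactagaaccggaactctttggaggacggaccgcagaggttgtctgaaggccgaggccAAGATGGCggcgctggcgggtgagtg
The letters of NRF1 were found once in the window of Ndufa5, once in that of Ndufs6 and 3 times in that of Ndufb4, and those of YY1 once each in the windows of Ndufs6 and Ndufs7. Every window shown thus holds a match, which is not so for all members with a large difference. Between log2 differences of 1.48 and 1.70 from untreated cells, the windows of Ndufab1, Ndufb10, Ndufa4 and Ndufa1 held 0 matches. Those of Ndufb6 and Ndufc1 held 1 each.

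RefSeq gave 42 such windows for 40 of the 47 members. Ndufa5 and Ndufa7 each had an overlapping pair of windows, and the pair of Ndufa5 holds the same NRF1 match. Windows of other genes were taken whether or not the gene was expressed in these cells. The NRF1 letters were in 23.8% of the 42, against 6.38% of 21263 windows of protein-coding genes and 4.6% of all 32851. The YY1 letters were in 19.0%, against 3.05% and 2.75%, and the ETS letters in 14.3%, against 11.6% and 8.86%. At least 1 of the 3 was in 22 of the 42 windows, or 52.4%, against 18.9% of the windows of protein-coding genes. Each window was counted once per motif, and in 0 of the 42 did matches to different motifs overlap. Among the 15 members with a window that were higher with VD3 plus MM-401, 9 held a motif, and among the 25 others 12 did. A match of letters is a description and not a bound site.

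In the membrane arm, 8 of 20 accessory subunits were higher with both agents than without any, and 18 of 20 differed 2-fold. Ndufb4 was at 88.1 FPKM with VD3 plus MM-401 (53.1 to 123), 46.5 with VD3 (29.2 to 63.8) and 27.9 in untreated cells (16.7 to 39.1), a log2 difference of 1.63 between the first and the last. The VD3 pool lay between them with bounds that overlapped both. Ndufc1 was at 469, 231 and 159 FPKM, Ndufb10 at 320.3, 163 and 109, and Ndufa1, an X-linked subunit, at 337, 178 and 120, in the order VD3 plus MM-401, VD3 and untreated. Ndufs5, a small protein that faces the intermembrane space, was at 94.1, 55.6 and 34.1 FPKM, Ndufb7 at 350.02, 225 and 126, and Ndufa8 at 149.8, 98.0 and 62.7. Ndufa13, also known as GRIM-19 and tied to cell death signalling in other contexts, was at 609.5, 415 and 251 FPKM.

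Members of the membrane arm with large differences but wide bounds were not counted. Ndufb6 was at 384 FPKM with VD3 plus MM-401 (82.3 to 686), 193 with VD3 (78.2 to 307) and 126 in untreated cells (23.2 to 229). Ndufa3 was at 726 FPKM with VD3 plus MM-401 (368 to 1085) and 266 in untreated cells (156 to 376), so its bounds overlapped narrowly. Ndufb9, an abundant member, was at 1024, 714 and 414 FPKM, with an untreated upper bound of 699 above the lower bound of 343 with both agents. Ndufb2, Ndufb3 and Ndufb5 had log2 differences of 1.27, 1.07 and 1.28 with overlapping bounds. Ndufb8 and Ndufc2 had the smallest differences of this arm, 0.77 and 0.84 on the log2 scale. Ndufb8 was at 621 FPKM with VD3 plus MM-401, 611 with VD3 and 364 in untreated cells, at a locus that also names Gm20538 and Sec31b.

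The 7 conserved core subunits had a median log2 difference of 1.02 between VD3 plus MM-401 and untreated cells. Ndufs7, which carries the iron-sulfur cluster next to ubiquinone, was the 1 core subunit counted as higher, at 197 FPKM with VD3 plus MM-401 (129.7 to 265), 132 with VD3 (88.6 to 176) and 83.3 in untreated cells (55.4 to 111). Ndufv1, which binds NADH and the flavin, was at 307 FPKM with VD3 plus MM-401 (144 to 469.9), 215 with VD3 and 127 in untreated cells (69.1 to 184), and Ndufv2, its iron-sulfur partner, at 418, 284 and 197. Both differed 2-fold with overlapping bounds. Ndufs8, another iron-sulfur subunit, was at 176, 149 and 86.5 FPKM at a locus that also names Tcirg1. Ndufs3 was at 92.8, 77.4 and 47.1 FPKM.

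Ndufs1, the largest subunit, was at 143, 102 and 89.0 FPKM with bounds that reach 0 in every pool. Its estimated counts were 12996 with VD3 plus MM-401, 15678 with VD3 and 13586 in untreated cells, so by count it was lowest with both agents. Its exons overlap those of Eef1b2 on the opposite strand, and the counting is not stated to use strand.

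**Figure D2:**
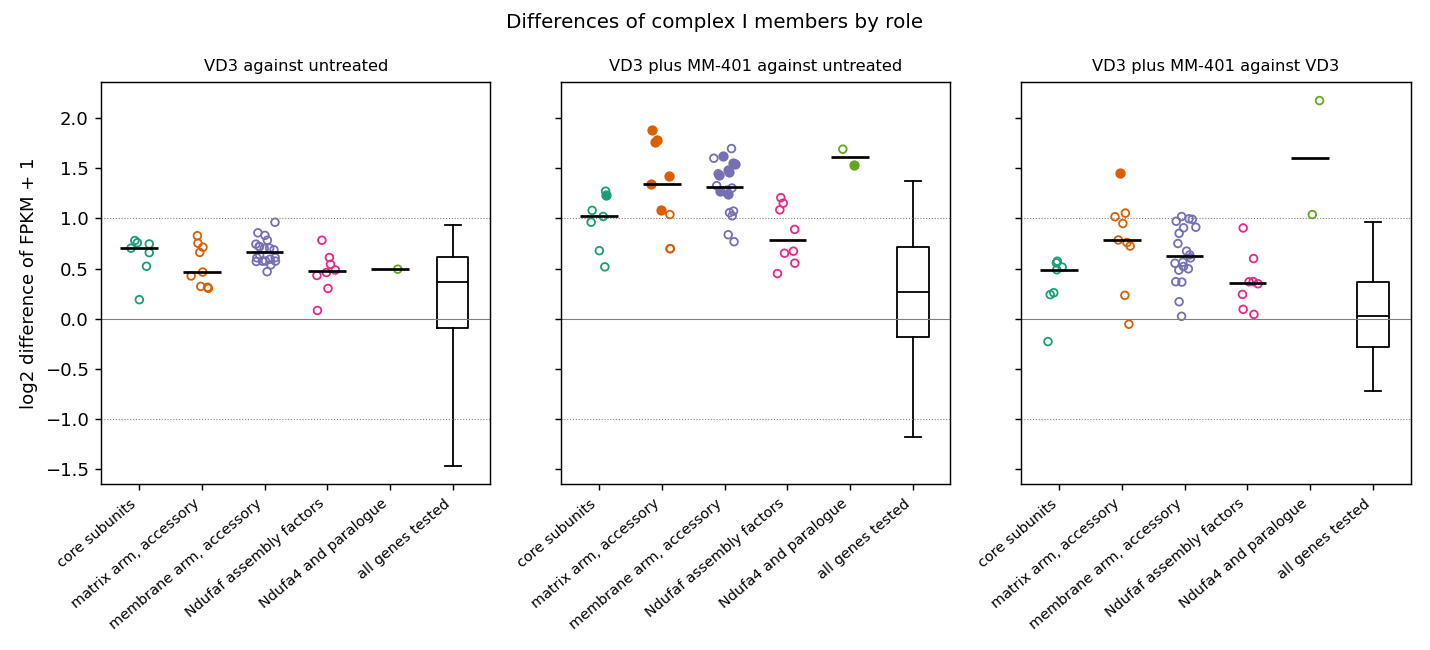
Log2 difference of FPKM + 1 for complex I members by role in the 3 comparisons, with the median of each role as a bar, beside a box of all genes compared (quartiles, whiskers at the 5th and 95th percentiles). The pseudogene is not drawn. Filled points are members counted as higher; in VD3 plus MM-401 against untreated these are 16 members, with medians of 1.34 for the matrix-arm and 1.32 for the membrane-arm accessory subunits and 0.78 for the assembly factors, and in VD3 against untreated there are 0.

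The Ndufaf assembly factors had a median log2 difference of 0.78, against 1.27 for the 36 subunits, and 0 of the 8 were counted as higher. Their transcripts are longer, with a median of 1308.5 bases against 810.0 for the subunits, and differences fell with length in these pools. Set against other protein-coding genes of similar length, the median factor was 0.24 higher and the median subunit 0.47. The difference between factors and subunits was not tested. Their roles are known mostly from human cells. Ndufaf2, a paralogue of Ndufa12 that occupies its place during assembly, was at 197 FPKM with VD3 plus MM-401 (31.2 to 362), 105 with VD3 (52.9 to 156) and 84.6 in untreated cells (45.9 to 123). It had the greatest difference of the factors, 1.21 on the log2 scale, and its lower bound with both agents lay below the untreated one. Ndufaf8 and its partner Ndufaf5, which hydroxylates Ndufs7, were at 59.5, 45.8 and 26.2 FPKM and at 35.8, 27.9 and 18.9 FPKM in the order VD3 plus MM-401, VD3 and untreated. Ndufaf6 was at 81.0, 53.1 and 37.6 FPKM. Of the 8 factors, 3 differed 2-fold (Ndufaf2, Ndufaf6 and Ndufaf8).

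The other factors differed by less than 2-fold. Ndufaf1, the first assembly factor described, was at 68.0 FPKM with VD3 plus MM-401 (8.31 to 128), 57.4 with VD3 and 42.3 in untreated cells. Ndufaf3 and Ndufaf4, which act together at an early step, were at 48.4, 45.3 and 32.6 FPKM and at 23.9, 18.3 and 17.2 FPKM in the same order. Ndufaf7, a mitochondrial methyltransferase, was at 35.9, 34.8 and 22.4 FPKM. Ndufaf4 had the smallest difference of the factors, 0.45 on the log2 scale. By estimated count it was at 2782 with VD3 plus MM-401, 2024 with VD3 and 2571 in untreated cells, which puts VD3 below untreated.

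Assembly factors with other names form a list of non-members, of which 11 were in the tables and 10 were compared. In VD3 plus MM-401 against untreated, 1 of the 10 was higher and 0 were lower, and their median log2 difference was 0.30, near the 0.27 of all genes. Tmem261, a factor for the distal membrane arm, was the one counted as higher, at 77.6 FPKM with VD3 plus MM-401, 61.7 with VD3 and 33.9 in untreated cells. Ecsit and Acad9, partners of Ndufaf1, were at 66.9, 66.6 and 42.5 FPKM and at 52.4, 57.2 and 43.3 FPKM in the same order. Tmem126b, a further partner, was at 11.7, 7.45 and 12.5 FPKM. Of the nuclear subunits of complexes II to V, 35 were compared, 14 were higher and 0 lower, with a median of 1.14. The log2 differences of the 35 ran between 0.11 (Uqcrc2) and 1.88 (Atp5k). Among the 14 that were higher are Atp5k of the ATP synthase, at 639, 319 and 173 FPKM, and Cox6b1 of cytochrome oxidase, at 2610.1, 1561 and 948 FPKM. The 7 complex I subunits encoded in mitochondria have no values, since their 2 loci carry no valid status in the tables.

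In the comparison of VD3 with untreated cells, no single complex I member was counted as higher or lower, although 46 of 46 compared members had a higher FPKM. Of all 10910 genes, 0.926% were higher and 4.22% lower, and 71.7% had a higher FPKM with VD3. The median member was 0.61 higher on the log2 scale, against 0.36 for the median gene, and 39 of 46 members lay above that gene. All 20 membrane-arm accessory subunits did so, with a median of 0.66 and a range of 0.47 to 0.96, as did 6 of 7 core subunits and 6 of 9 in the matrix arm. Ndufb11, an X-linked subunit of the membrane arm, had the greatest difference, at 87.0 FPKM with VD3 (47.1 to 127) and 44.2 in untreated cells (22.5 to 65.8). Ndufa11, related to mitochondrial import proteins, was at 221 FPKM with VD3 and 122 in untreated cells. With both agents, Ndufb11 was at 112 FPKM and Ndufa11 at 249. The smallest differences were those of Ndufaf4 (0.08), Ndufab1-ps (0.18) and Ndufs1 (0.19). The bounds of all 47 members overlapped between these pools.

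What the inhibitor adds to VD3 is addressed by setting both treated pools against each other. Ndufa5 was the 1 member of 47 (2.13%) counted as higher and 0 were lower, against 0.83% higher and 0.541% lower of all 10719 genes. Among other protein-coding genes of similar length to Ndufa5, 1.64% were higher, so 1 such member is near that share. The log2 difference of Ndufa5 was 1.46 by FPKM and 1.32 by estimated count. Its level was 525 FPKM in the VD3 plus MM-401 pool and 191 in the VD3 pool. The median member was 0.56 higher, against 0.02 for the median gene. A higher FPKM was found for 44 of 47 members, against 52.1% of all genes compared. Past 2-fold with overlapping bounds were Ndufa2 (333 and 160.0 FPKM with VD3 plus MM-401 and VD3), Ndufc1 (469 and 231), Ndufv3 (316 and 156), Ndufa4 and Ndufa4l2. With Ndufa5, 6 of 47 members thus differed 2-fold, against 4.7% of all genes compared. Ndufa9 (-0.06 on the log2 scale) and Ndufab1-ps (-0.83) were lower by value. The core subunits had a median of 0.49 and the matrix-arm accessory subunits one of 0.79. This comparison and the one against untreated cells share the VD3 plus MM-401 pool, so their differences are not independent.

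Ndufa4 and Ndufa4l2 carry complex I names for historical reasons. Ndufa4 was at 1695 FPKM with VD3 plus MM-401 (1019 to 2371), 824 with VD3 (543 to 1106) and 585 in untreated cells (391 to 778). It was higher with both agents than in untreated cells, and its bounds with VD3 overlapped those of the other pools. Ndufa4l2, a hypoxia-induced paralogue in other cell types, was at 13.8, 2.28 and 3.58 FPKM with lower bounds of 0 in all 3 pools. Its estimated counts were 911, 1043 and 678, so its order between both treated pools turns with the measure. Ndufa4l2 entered the comparisons only through its FPKM with both agents. In those it adds to the counts of members with a higher FPKM and with a 2-fold difference, through a value whose lower bound is 0. Its exons overlap those of Shmt2 on the opposite strand. The pseudogene Ndufab1-ps, at 10.1, 18.6 and 16.4 FPKM with lower bounds of 0, was the only member with a lower FPKM in the VD3 plus MM-401 pool than in untreated cells.

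**Figure D3:**
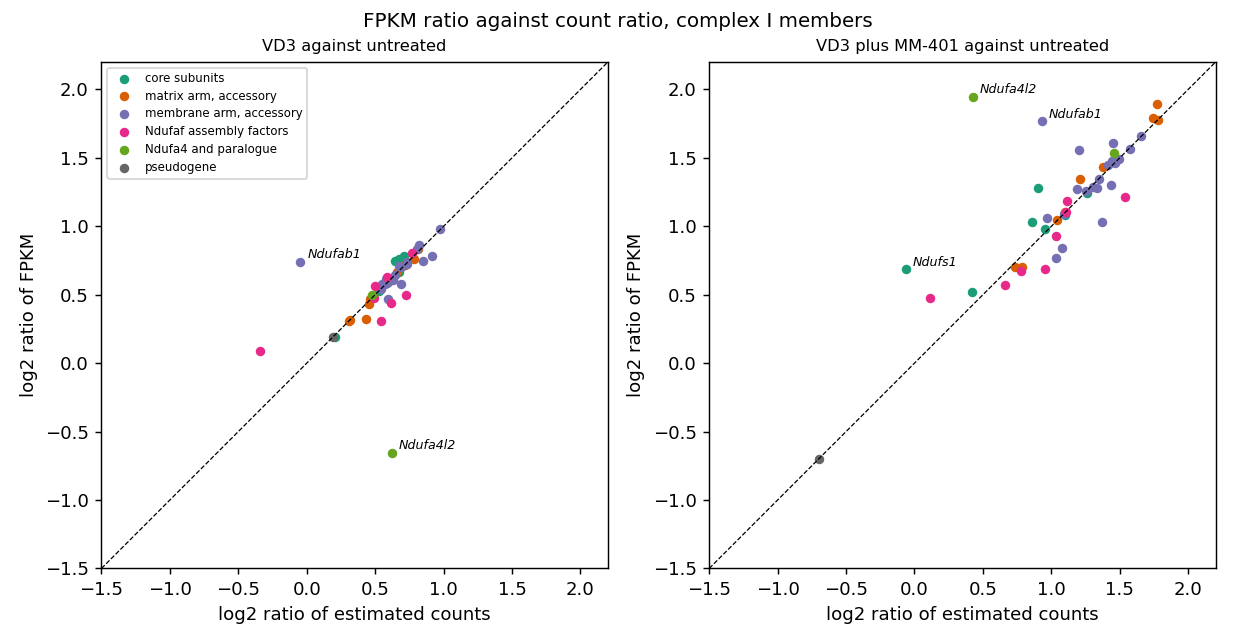
Log2 ratio of FPKM (vertical) against log2 ratio of estimated counts (horizontal) for complex I members, for VD3 against untreated on the left and VD3 plus MM-401 against untreated on the right, with a dashed line where both are equal. Members whose ratios differ by more than 1.5 times are named: 2 in the left plot and 3 in the right one.

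FPKM and estimated counts gave the same picture for most members. The ratio of FPKM and the ratio of counts differed by more than 1.5 times for 3 of 47 members in VD3 plus MM-401 against untreated (Ndufs1, Ndufab1 and Ndufa4l2), against 6.51% of the 9781 genes with over 500 counts in every pool. Ndufab1 was at 48.3 FPKM with VD3 plus MM-401, 23.7 with VD3 and 14.2 in untreated cells, a ratio of 3.40 between the first and the last. Its counts were 1713, 870.4 and 898.6, a ratio of 1.91. With counts scaled to equal pool totals, the median member was 0.86 higher in VD3 plus MM-401 against untreated on the log2 scale. The median gene was 0.03 higher. By this measure 44 of 47 members were higher, against 52.4% of all genes compared. In VD3 against untreated the same scale gave 0.38, against 0.13 for the median gene. There, 42 of 46 members were higher, against 60.7% of all genes compared.

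Complex I transcripts are short, and differences in these pools moved with transcript length. The members had a median transcript length of 866 bases, against 2611 for the other protein-coding genes compared. Across 46 members, the Spearman correlation of the VD3 plus MM-401 against untreated difference with length was -0.465, and across 8339 other genes -0.548. Genes within a pool share their library and are not replicates. With the other genes in 10 classes of about equal size by length, the class with the shortest transcripts had a median of 817 bases. In it, the median log2 difference was 0.94 and 17.5% were higher. The 29 members in that range of lengths had a median difference of 1.34 and 14 were higher, but they were shorter still, with a median length of 623 bases. Against the median of other genes in its own length class, the median member was 0.40 higher on the log2 scale, and 41 of 46 were above it. Ndufa5, at 595 bases, was 0.95 above its class.

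In VD3 against untreated the members lay closer to genes of their length. The median member was 0.07 above its length class, 30 of 45 were above it, and the correlation with length among members was -0.0327. With GC content of the transcript it was 0.515 among members and 0.566 among 8309 other genes. In VD3 plus MM-401 against VD3, the median member was 0.36 above its class and 35 of 46 were above it. The part that length and GC content had in the members' differences was not tested further.

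**Figure D4:**
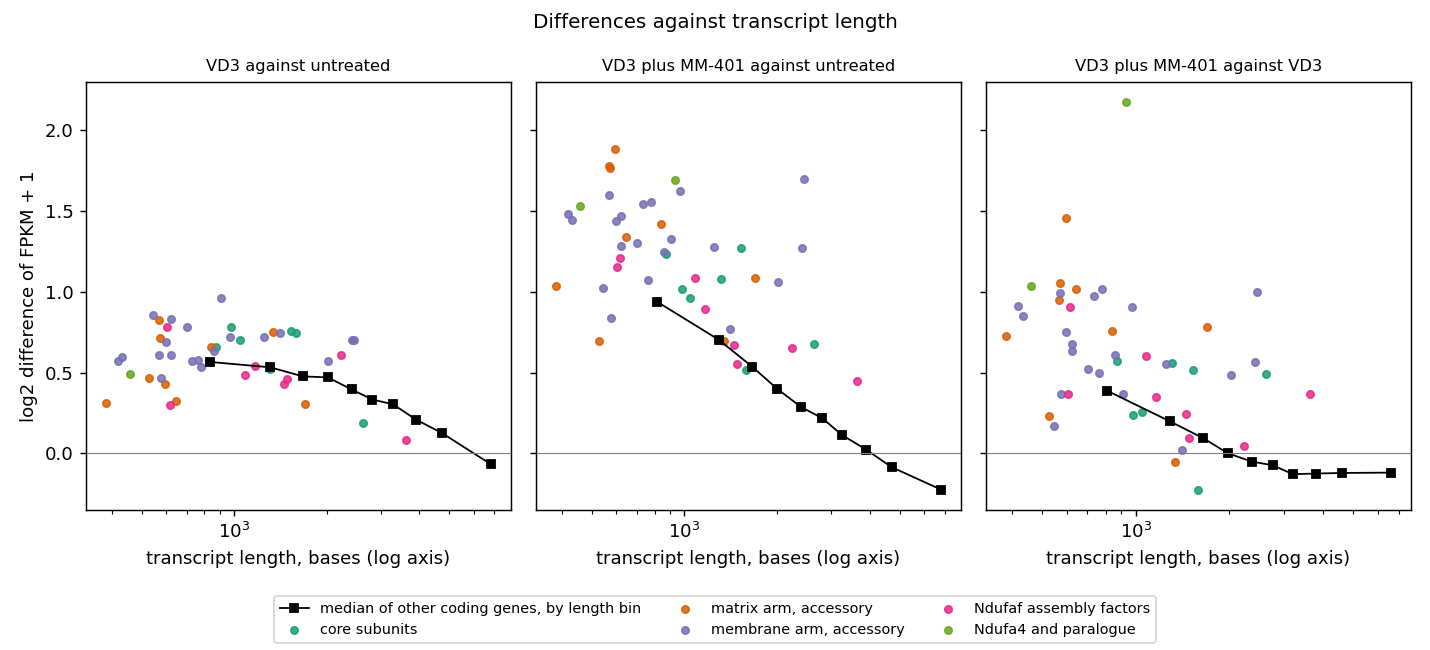
Log2 difference of FPKM + 1 against transcript length in bases (log axis) for complex I members, coloured by role, in the 3 comparisons. Black squares are medians of the other protein-coding genes in 10 length classes; in VD3 plus MM-401 against untreated these run between 0.94 for the shortest and -0.22 for the longest, and 41 of 46 members lie above the median of their class.

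Several members share sequence or exons with other genes. Exons of 16 members overlap another protein-coding gene in GENCODE vM21, and 3 of the 16 members that were higher with VD3 plus MM-401 are among them: Ndufa2 with Tmco6, Ndufs6 with Mrpl36 and Ndufa13 with Tssk6, each on the opposite strand. Over the members without such overlap whose locus names no other gene, which leaves out Ndufs8, 13 of 30 were higher, with a median log2 difference of 1.18. Ndufs6 and Ndufb4 also have copies, Ndufs6b and Ndufb4c, which are not among the 47 names. The counts of Ndufs6 and Ndufb4 may therefore be split or shared, as may those of Ndufab1 and its pseudogene Ndufab1-ps.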

How the data were processed

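RNA was measured in 6 libraries, pooled to 1 column per group in the deposited tables. Cufflinks 2.2.1, TopHat2 2.1.1, SAMtools 1.5 and the build mm10 are named per the submitters' processing notes, with settings and strandedness not given in the sources used here. For each locus and pool the authors deposited FPKM with a lower and an upper bound, and estimated counts, which need not be whole, with their variance. The columns named VD3 and ESCfef were matched to VD3 and untreated by the shared part of the name. The column VD3122 starts with VD3 and was matched to VD3 plus MM-401 as the remaining group with VD3. The rest of the names ESCfef and VD3122 is not explained by the labels.

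The 14 loci without a valid status and the 11771 without a name were left out, and loci of 1 name were summed. Differences are log2 ratios of FPKM + 1, which understates those of low genes, among genes that reached 5 FPKM in either pool. With pooled columns no count test across libraries could be run, so values are given without p-values. Lengths and GC content are medians over protein-coding transcripts of GENCODE vM21 (GRCm38, the sequence of mm10), where all 47 names were found. Genes named were those called, the 3 greatest and smallest differences per comparison, core subunits, assembly factors, Ndufa4 and Ndufa4l2, of which 1 is counted but not reported by name here; others were chosen after their values were seen. The members and lists were chosen with earlier results of these data known. Python 3.11.15, pandas 2.3.3, NumPy 2.4.6 and SciPy 1.17.1 were used.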

Additional observations from a re-analysis of the deposited data

How the results depend on the processing

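The 16 members higher in VD3 plus MM-401 against untreated were 13 by counts scaled to equal pool totals (Ndufb10, Ndufs4 and Ndufv3 fell short) and 13 with values centred on the median gene (Ndufa8, Ndufs4 and Ndufs7 fell short). In both settings, and with counts as deposited, the bounds were still those of the FPKM as deposited. A member with overlapping FPKM bounds could thus not be counted. The count was 16 with a pseudocount of 0.1 FPKM, with no filter on low values, with at least 20 FPKM, with a 1.5-fold threshold and with counts as deposited. All 16 were above 20 FPKM with both agents. Changing the filter, or lowering the pseudocount or the threshold, could therefore not remove one. The count was 34 with the 2-fold difference alone, which 13.4% of all genes reached. In VD3 plus MM-401 against VD3, that setting gave 6 in place of 1, and 4.7% of all genes reached it. The median difference in VD3 against untreated was 0.25 after centring, in place of 0.61. It ranged between 0.86 and 1.24 in VD3 plus MM-401 against untreated. Counts of lower members were 0 under each of these settings. Counts as deposited, genes with 1 locus of 1 name (15 of 40 higher) and members without exonic overlap were chosen after seeing the data.

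No paired analysis was possible because the columns pool both libraries of a group, and leaving out a library was not run for the same reason. The bounds describe the authors' model of a pool, and the spread between libraries cannot be read from them.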

Other observations

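Among 4218 other protein-coding genes with at least 20 FPKM in every pool, the 5 whose pattern over the 3 pools was nearest to that of Ndufa5 were Wdr34, Pet100, Mrps22, Mrpl52 and Tomm7. Likeness was the Euclidean distance between log2 values of FPKM + 1 centred on each gene's mean, and it was 0.0808 for Wdr34 and 0.195 for Tomm7. Wdr34 was at 505 FPKM with VD3 plus MM-401, 197 with VD3 and 138 in untreated cells, and Mrps22 at 565, 212 and 136. With 3 values per gene, such likeness describes these pools only.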
